A study of Mus musculus with 12 samples.

Results

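*Cx3cr1* encodes CX3CR1, the receptor for the chemokine fractalkine, and was followed here through every deposited ChIP-seq peak that carries its name. Of 26706 peaks of RNA polymerase II, 25 were assigned to *Cx3cr1* as the gene of the nearest transcription start site (TSS). Of 55862 peaks of acetylated histone H3 lysine 27 (H3K27Ac), 1 was. The polymerase was precipitated through Rpb2, its second-largest subunit. The study asked whether polymerase occupancy and acetylation differ between microglia with and without the receptor. Microglia were sorted as CD11b+CD45lo cells from brains of 2-mo-old C57BL/6J mice, either *Cx3cr1*+/+ (WT) or *Cx3cr1*eGFP/eGFP (KO), in which eGFP interrupts both copies of *Cx3cr1*. The KO allele is germline and global, so every cell of the mouse carries it from conception, and the mice, bred onto C57BL/6J, were littermates from crosses of heterozygotes. Each sample was a pool of cells from 3 mice of the same sex, with a female and a male pool, by label, per genotype (n = 2 per genotype and mark), so a p-value covers the spread between pools, and sex and pool cannot be told apart.

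CX3CR1 is a Gi-coupled receptor and a classical marker of microglia, and its ligand is made by neurons. RNA polymerase II gathers at the TSS of a transcribed gene, moves through the gene body, and is released past the 3′ end after the transcript has been cleaved. H3K27Ac marks active promoters and enhancers, and long unbroken stretches of it are typical of genes that define a cell type.

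The Rpb2 libraries held 11662185 and 13653287 reads in WT (female, male) and 44332626 and 16528108 in KO, of which 11.2% to 15.1% lay in peaks. The H3K27Ac libraries held 10395804 to 21134403 reads. The share in peaks was 15.9% in the WT female H3K27Ac library and 61.1% to 65.3% in the other 3. At peaks of *Ddx3y*, *Eif2s3y* and *Uty*, all Y-linked, the Rpb2 library labelled WT female held 136 reads, where the KO female had 0, which goes against its sex label. All 11 markers of microglia had peaks of both marks. No Rpb2 peak carried the name of any listed marker of border macrophages, monocytes and neutrophils, lymphocytes or neurons, and 1 of 3 markers of astrocytes, 1 of 3 of oligodendrocytes and 2 of 3 of endothelium had one. H3K27Ac peaks carried more of these names, 4 of 4 for border macrophages, 2 of 4 for monocytes and neutrophils, 1 of 4 for lymphocytes, 3 of 3 for neurons, 2 of 3 for astrocytes, 3 of 3 for oligodendrocytes and 3 of 3 for endothelium. Of these lists astrocytes had the highest summed level, 59.9 CPM (reads per 1e6 reads of the library) in the WT female and 285 to 313 in the other 3. The microglia list had 660 and 3355 to 3786. These sums run over 2 astrocyte and 11 microglia genes with a peak, so they do not compare levels per gene. The part of such cells in the results was not tested.

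*Cx3cr1* lies on the minus strand of chr9, from 120048683 to 120068296 in GRCm38 (mm10). Its RefSeq transcript has 2 exons, a first exon of 92 bp, an intron of 15861 bp and a second exon of 3661 bp that holds the whole coding sequence (1062 bp) and a 3′ UTR of 2587 bp. The 25 Rpb2 peaks were 200 to 497 bp wide (median 284) and were numbered here from 1 to 25 in the direction of transcription. Of these, 4 lay upstream, 2 within 1000 bp of the TSS, 13 in the intron, 4 in exon 2 and 2 past the 3′ end. The single H3K27Ac peak ran from 120026314 to 120074030, which is 5.73 kb upstream of the TSS to 22.37 kb past the 3′ end, and contained all 25. At 47.7 kb it had rank 2 by width among the H3K27Ac peaks.

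Sequences from the GRCm38.p6 reference are given for the places where the results below turn, all 5′ to 3′ on the minus strand. They are the CCAAT box before the TSS (chr9:120068311-120068340), and the central 300 bases of peak 6 in the intron (chr9:120067177-120067476), of peak 20 in the coding sequence (chr9:120051286-120051585) and of peak 25 past the 3′ end (chr9:120046422-120046721). Peak 25 is intergenic for RefSeq and falls in an intron of a longer GENCODE transcript of *Cx3cr1*. Capitals mark matches to the motifs searched in the promoter and peak 6, and only runs of TG repeats of at least 8 bases in peak 25, whose match to TGTGGTT, starting at base 88, is left in lower case. Peak 20 holds no match.
Promoter, CCAAT box: aaaccagatgctATTGGctaacttcgaaaa
Peak 6: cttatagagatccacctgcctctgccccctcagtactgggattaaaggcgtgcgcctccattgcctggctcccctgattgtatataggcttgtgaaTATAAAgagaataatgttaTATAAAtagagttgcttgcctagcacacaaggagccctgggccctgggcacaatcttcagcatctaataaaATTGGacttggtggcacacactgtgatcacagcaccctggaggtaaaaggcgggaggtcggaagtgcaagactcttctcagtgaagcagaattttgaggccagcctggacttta
Peak 20: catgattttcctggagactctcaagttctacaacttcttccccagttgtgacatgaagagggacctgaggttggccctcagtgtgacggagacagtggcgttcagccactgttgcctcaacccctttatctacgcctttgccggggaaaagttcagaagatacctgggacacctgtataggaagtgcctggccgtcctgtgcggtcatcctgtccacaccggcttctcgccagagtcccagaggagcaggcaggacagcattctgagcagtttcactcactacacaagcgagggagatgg
Peak 25: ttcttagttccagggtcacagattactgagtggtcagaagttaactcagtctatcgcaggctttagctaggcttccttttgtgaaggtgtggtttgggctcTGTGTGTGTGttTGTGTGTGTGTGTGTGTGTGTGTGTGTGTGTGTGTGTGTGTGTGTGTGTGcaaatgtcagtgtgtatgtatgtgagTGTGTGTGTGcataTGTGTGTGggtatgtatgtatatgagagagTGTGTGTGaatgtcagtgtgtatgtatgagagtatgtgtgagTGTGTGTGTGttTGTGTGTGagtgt

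In these letters the promoter window, 250 bases before to 50 after the TSS, held none of the 7 motifs fixed for it. The letters GAGGAA stood for the PU.1 and ETS factors, TGANTCA for the dimers of AP-1, TGTGGTT for the RUNX family, CACGTG for the E-box, TATAAA for the TATA box and GGGCGG for Sp1 and KLF, beside the motif of the IRF factors. Each was searched on both strands. Among 32851 RefSeq promoter windows of the same length, the share holding each ranged from 3.44% for the IRF motif to 35.7% for GGGCGG. The letters CCAAT, added after the sequence was seen, occurred once, on the opposite strand with the match starting 32 bases before the TSS, and 37.4% of promoter windows hold them. GGGCGG was in 0 of the 25 *Cx3cr1* peak windows of 300 bases and in 30.3% of all Rpb2 peak windows, and the median GC content was 47.7% against 53.7%. GAGGAA was in 5 of the 25 (20%), against 32.8% of all. Other motifs had a higher share in the 25 than in all peak windows, with 16% against 5.79% for TGTGGTT, 20% against 9.78% for TATAAA and 12% against 6.82% for CACGTG, which are 4, 5 and 3 windows. Peak 25 was rich in TG repeats. They filled 34.7% of its window in 7 runs, the longest 50 bases. Such runs were also in 6 of the other *Cx3cr1* peak windows, where they filled up to 28% of a window. Over all peak windows, 8.06% held any such run. Only uniquely mapped reads entered the counts, per the study's methods.

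Along the gene, the tallest site per kb of peak in both genotypes was peak 5, which covers the TSS. Its density, in CPM relative to all reads of the library per kb, averaged 136 in WT and 146 in KO. In WT, the peaks past the 3′ end came next, with 81.3 for peak 24 and 68.8 for peak 25, and the intronic peaks ranged from 17.3 to 63.7 (median 30.2). In KO, peak 25 had 12.3 and rank 24 of 25, and peak 21 in the 3′ UTR came directly after the TSS, with 66.2, against 23.9 and rank 18 in WT. These densities are levels and carry no test. They rest on library totals, and a larger share of the reads lay in peaks in both KO libraries. They thus serve to compare peaks within a genotype. Relative to reads in peaks, peak 5 was lower in both KO pools.

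**Figure D1:**
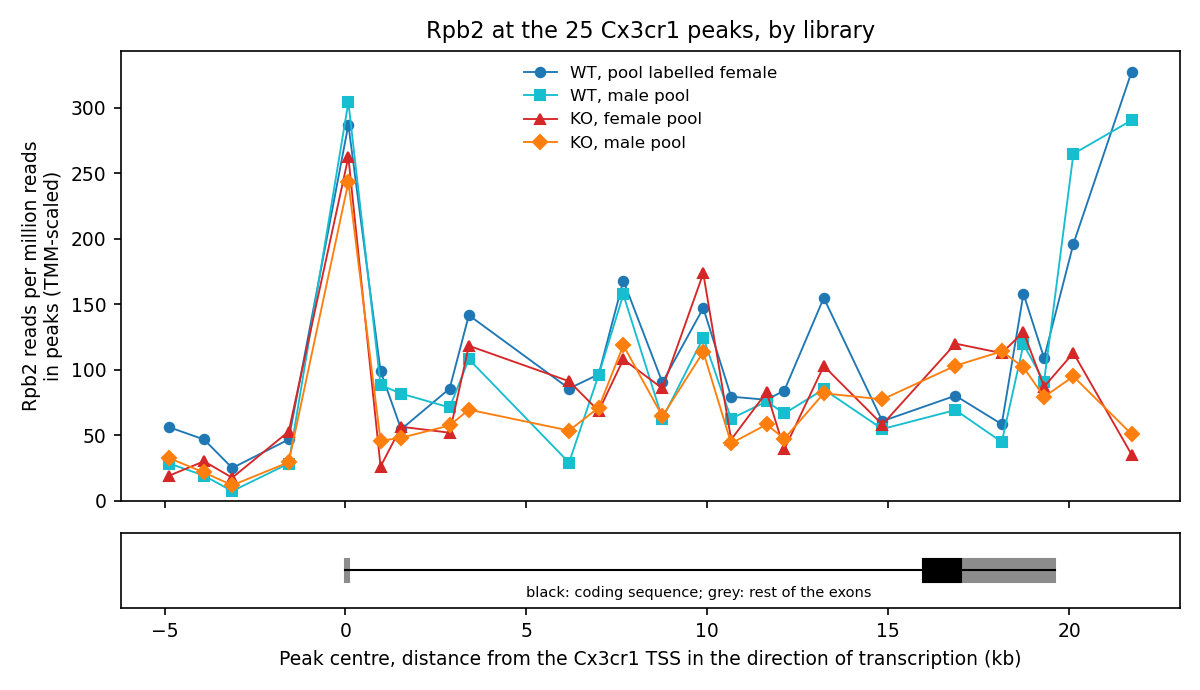
Rpb2 CPM, relative to reads in peaks and TMM-scaled, at the 25 *Cx3cr1* peaks in each of the 4 libraries, against the distance of the peak centre from the TSS in kb, over a map of the RefSeq exons. Lines join the points of 1 library and stand for no measurement between peaks. All 4 libraries are high at the TSS, at 243 to 304, while at the last peak the WT libraries are at 290 and 327 and the KO libraries at 35.1 and 50.7.

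The largest difference between genotypes at *Cx3cr1* lay past its 3′ end. Peak 25, centred 21.7 kb from the TSS and thus beyond the annotated end of the transcript, had 421 and 441 reads in the WT pools (female and male by label, as in all pairs below) but 193 and 130 in the KO pools, whose libraries were deeper. Both KO pools were far below both WT pools once depth was taken into account. In CPM relative to reads in peaks, scaled by the trimmed mean of M-values (TMM) as in all values below, WT had 309 ± 26.2 and KO 42.9 ± 11.04 (SD, n = 2). Rpb2 was 7.26-fold lower in KO (log2 ratio of KO to WT −2.86 ± 0.26, where ± is the SE for every log2 ratio, adjusted p = 0.00264, edgeR's quasi-likelihood test over all 26706 peaks). It had the lowest p of all peaks. Of the 25 peaks it was the only one past the threshold of 0.05, and 2 of all 26706 peaks (0.00749%) were, both lower in KO. The authors had called it in their KO list and not in their WT list, although it held fewer reads in KO. The call was lost without the KO female library, the deepest, where the log2 ratio of KO to WT was −2.60 with an adjusted p of 0.0858. Without the library labelled WT female, peaks 21, 24 and 25 passed, and so did 2210 of all peaks. Leaving out the WT male gave peaks 6, 24 and 25, and 1963 of all peaks. Here and below, a fit without 1 library leaves its genotype with a lone pool, which is assumed to vary like the other genotype's pair, and that pair alone gives the spread.

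Other peaks as rich in TG repeats went in both directions. In 17 other peaks with at least as large a share of TG repeats, the log2 ratio ranged from −1.85 to 2.70, with a median of −0.11. By edgeR's quasi-likelihood test 0 of them were called, where only 2 of all 26706 peaks were, so this lack of calls says little. An unadjusted p under 0.05 was reached by 2 of the 17 and by 12.2% of all peaks. DESeq2 and the likelihood ratio test each called 1 of the 17, and 1022 and 924 of all peaks. The 17 peaks were shallow, with a median of 18.2 CPM.

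Peak 24 lay just past the annotated 3′ end. It had 252 (female) and 402 (male) reads in the WT pools, against 620 and 243 in the KO pools. Its CPM was 196 and 265 in WT and 113 and 94.8 in KO, so both KO pools were lower. The log2 ratio of KO to WT, −1.15 ± 0.24, did not pass (adjusted p = 0.198, edgeR's quasi-likelihood test). It passed with DESeq2 (adjusted p = 0.000346), with the edgeR likelihood ratio test (0.00673), and without either WT library (0.00176 without the female, 0.0468 without the male, with the spread from the KO pair alone). Summed, the 2 peaks past the end had 523 and 555 CPM in WT and 148 and 145 in KO, and were 3.67-fold lower in KO (log2 ratio −1.88 ± 0.18, adjusted p = 0.00478, edgeR's quasi-likelihood test). With the library's total reads in place of TMM the same sum gave −1.55 and an adjusted p of 0.0642. Without the KO female library it gave −1.89 and 0.0865.

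At 2 peaks of exon 2 the values ran the other way. Peak 21, in the 3′ UTR, had 75 and 68 reads in the WT pools but 619 and 292 in the KO pools, or 58.3 and 44.8 CPM in WT and 113 and 114 in KO. The KO pools did not overlap the WT pools. Its log2 ratio of 1.14 ± 0.30 fell short of the threshold (adjusted p = 0.198, edgeR's quasi-likelihood test), but it passed with DESeq2 (0.00779), the likelihood ratio test (0.0266) and, with the spread from the KO pair alone, without the library labelled WT female (0.0224). Peak 20, in the coding sequence, which eGFP interrupts in KO, had 103 and 105 reads in the WT pools but 659 and 264 in the KO pools. It was at 80.1 and 69.1 CPM in WT and 120 and 103 in KO. Peaks 20 and 21 were the only ones of the 25 at which both KO pools were higher, and peak 20 was picked out after its values were seen. The authors had called it in their WT list alone. Which bases of the gene eGFP replaced is not given in the sources used here, so reads at this peak do not check the genotype labels. Its log2 ratio was 0.58 ± 0.28 (adjusted p = 0.424, edgeR), and no alternative run moved it past the threshold. The other peaks of exon 2, nearer the 3′ end, did not stand out. Peak 22, the most-read, had a log2 ratio of −0.26 ± 0.26 with overlapping pools (adjusted p = 0.713, edgeR). Peak 23 had −0.26 ± 0.28 with both KO pools lower (adjusted p = 0.726, edgeR).

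**Figure D2:**
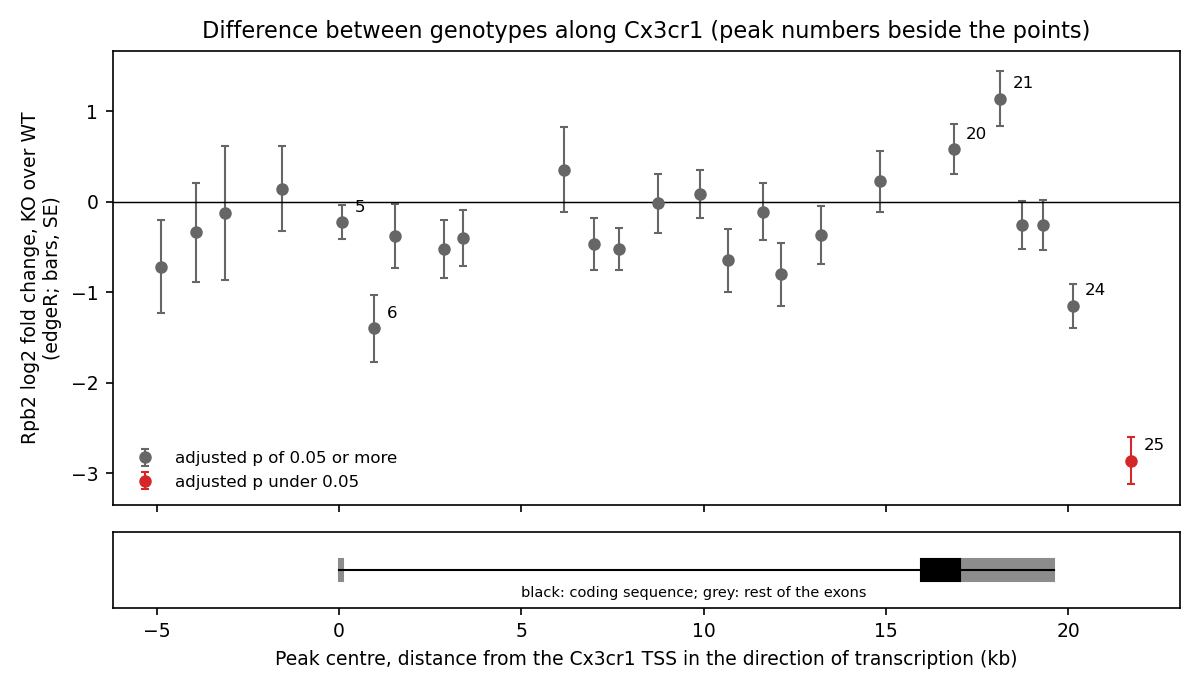
Log2 ratio of Rpb2 in KO over WT at each of the 25 peaks (edgeR, bars give the SE), against the distance of the peak centre from the TSS in kb, over a map of the RefSeq exons. Peak 25, the only one with an adjusted p under 0.05, sits at −2.86, and peak 21, at 18.1 kb, sits at 1.14.

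Of the 2 peaks within 1000 bp of the TSS, peak 5 differed less between the genotypes. Peak 5 had 369 and 462 reads in the WT pools against 1442 and 623 in the KO pools, which are 287 and 304 CPM in WT and 262 and 243 in KO. Both KO pools were below both WT pools by a small margin, and the log2 ratio was −0.23 ± 0.19 (adjusted p = 0.650, edgeR's quasi-likelihood test). With library totals in place of TMM its sign turned, to 0.10, but that scaling moves the median of all Rpb2 peaks from 0.04 to 0.37, and relative to that median the value was −0.27 under either scaling. Peak 6, 970 bp into the gene, differed more. It had 127 and 134 reads in the WT pools against 143 and 117 in the KO pools, in spite of the greater depth of the KO libraries. Its CPM was 98.7 and 88.2 in WT and 26.0 and 45.6 in KO. The log2 ratio of −1.40 ± 0.37 did not pass (adjusted p = 0.198, edgeR), but it passed with DESeq2 (0.0105), the likelihood ratio test (0.0177) and, with the spread from the KO pair alone, without the WT male library (0.0277).

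Within the intron, 10 of 13 peaks had a negative log2 ratio, from −0.80 to 0.35 (median −0.38), and none passed the threshold. The most-read, peak 14, had 189 reads in each WT library against 954 and 291 in the KO pools, which overlapped them in CPM (log2 ratio 0.09 ± 0.27). Peaks 12 and 17 had an unadjusted p under 0.05 with both KO pools lower. Peak 12 had 168 and 157 CPM in WT and 108 and 119 in KO (log2 ratio −0.52 ± 0.24, adjusted p = 0.4002, edgeR). Peak 17 had 84.0 and 66.5 CPM in WT and 39.1 and 47.2 in KO (log2 ratio −0.80 ± 0.35, adjusted p = 0.378, edgeR). Upstream of the TSS the 4 peaks were shallow, with 11 to 72 reads in the WT libraries, and their pools overlapped at each. The most-read of them, peak 4, lay where a longer GENCODE transcript of *Cx3cr1* starts and where the antisense gene *Gm33858* runs the other way, whose reads cannot be told apart here. It had 60 and 43 reads in the WT pools against 290 and 75 in the KO pools (log2 ratio 0.14 ± 0.47, adjusted p = 0.924, edgeR).

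Over all 25 peaks the median log2 ratio was −0.34, against 0.04 over all Rpb2 peaks, and 19 were negative. An unadjusted p under 0.05 was reached by 6 of the 25, or 24%, and by 12.2% of all peaks. The KO pools were both lower than the WT pools at 10 of the 25 (40%) and at 21.7% of all peaks, and both higher at 2 of 25 (8%) and at 25.7%. The 25 peaks lie on 1 gene and are not independent of each other. The KO list alone gave 13 of the 25, the WT list alone 6 and both lists 6. For the 13 of the KO list the median log2 ratio was −0.26, while over all 14148 peaks of that list it was 0.51. For the 6 of the WT list it was −0.73 against −0.89 over all 3665, and for the 6 of both lists −0.30 against −0.17 over all 8893. The authors called the lists per genotype on these same libraries, so a difference in median between lists is built in.

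The share of the gene's Rpb2 reads that lay in a part did not overlap between genotypes for the intron, exon 2 and past the end. Past the end lay 18.6% (95% Wilson interval 17.4 to 19.9) of the reads of the WT female library and 22.9% (21.5 to 24.2) of those of the WT male. For the KO libraries it was 7.09% (6.63 to 7.57) in females and 7.95% (7.21 to 8.76) in males. Exon 2 held 14.4% and 13.3% of the WT reads against 21.5% and 21.7% of the KO reads. The intron held 47.1% and 44.2% of the WT reads against 51.9% and 49.4% of the KO reads. The TSS held 13.7% and 16.2% of the WT reads against 13.8% and 15.8% of the KO reads, so the pools overlapped there, as they did upstream, with 6.19% and 3.42% against 5.72% and 5.18%. The intervals cover counting error only. The shares of a library add up to the whole, so a lower share in a part raises those of the others. In summed CPM the pools of the intron and of exon 2 overlapped between genotypes. The shares were not set against those of other genes. As summed CPM, exon 2 had a log2 ratio of 0.22 ± 0.18 (adjusted p = 0.653), the intron −0.27 ± 0.14 (adjusted p = 0.467), the TSS −0.43 ± 0.17 (adjusted p = 0.344) and the upstream part −0.26 ± 0.33 (adjusted p = 0.783), and none passed by edgeR's quasi-likelihood test. The TSS sum passed with DESeq2 (adjusted p = 0.0438) and the intron sum without the WT male library (0.0270, with the spread from the KO pair alone).

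**Figure D3:**
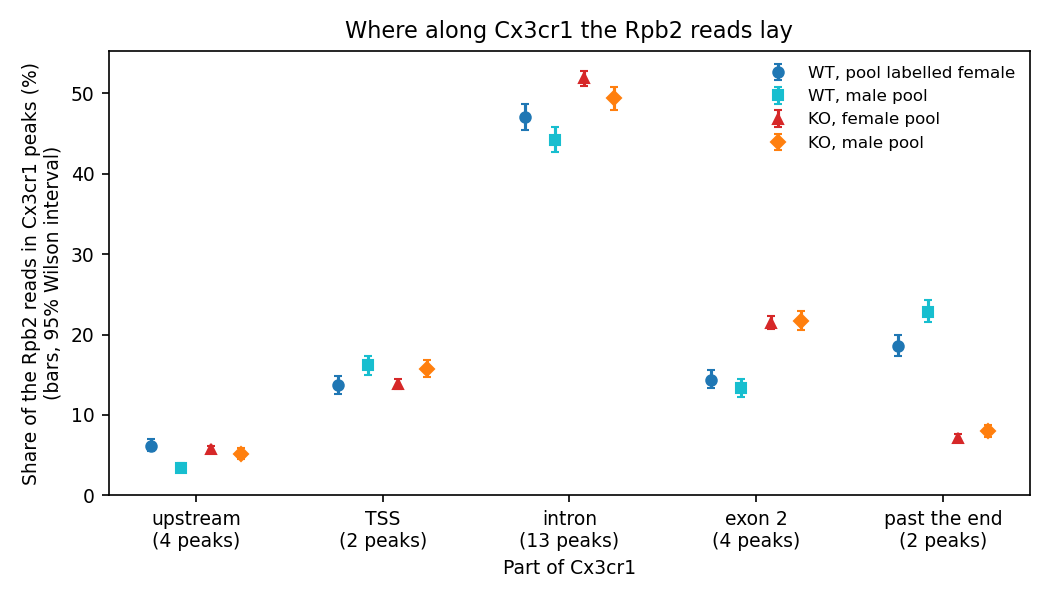
Share of each library's Rpb2 reads in *Cx3cr1* peaks that lay in each of 5 parts of the gene, in percent, with 95% Wilson intervals. In exon 2 both KO libraries, at 21.5% and 21.7%, are above both WT libraries, and past the end both KO libraries, at 7.09% and 7.95%, are below them.

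A ratio within each library does not depend on its scaling. The log2 ratio of reads from the coding start onward to reads before it was −1.02 and −0.82 in WT and −1.32 and −1.24 in KO, a difference of −0.36 between genotypes. All KO values lay below the WT values. An exact two-sided permutation test gave p = 0.333, the smallest that 2 pools against 2 can give. That sum joins exon 2 with the peaks past the end, whose log2 ratios had opposite signs. Taken against each other, a choice made after the values were seen, the log2 ratio of reads past the end to reads in exon 2 was 0.37 and 0.78 in WT and −1.60 and −1.45 in KO. For peak 21 over peak 25 it was −2.47 and −2.68 in WT and 1.68 and 1.16 in KO.

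Summed over its 25 peaks, *Cx3cr1* had 3617 and 3689 Rpb2 reads in the WT libraries, against 11468 and 4693 for KO. This gave it rank 2 of 10206 genes in both WT libraries, ranks 4 and 8 in the KO female and male, and rank 4 by the mean of the 4 libraries. Directly above it stood *Tex14* and *Tgfbr1*, a receptor kinase for TGF-beta. *Qk*, an RNA-binding protein gene, and *Mir6983* came next below. The sum runs over 25 peaks, against a median of 1 per gene, and by number of peaks *Cx3cr1* had rank 58. Per kb of peak *Cx3cr1* was at rank 1139 and by its highest single peak at rank 99.

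In CPM the sum was 2759 and 2351 in WT and 2124 and 1893 in KO, and both KO pools were lower. The log2 ratio was −0.35 ± 0.08 (adjusted p = 0.121, edgeR's quasi-likelihood test over 10206 genes), and 0 genes (0%) passed. At an unadjusted p under 0.05 there were 1101 genes (10.8%), among them *Cx3cr1*, whose p of 0.000432 was the 35th lowest. It passed with DESeq2 (adjusted p = 0.0234), which called 28 genes, and without the WT male library (0.00384, with the spread from the KO pair alone). Against these 4 genes that flank it in this order, whose log2 ratios ran from −0.02 (*Tex14*) to 0.12 (*Tgfbr1*), the value of *Cx3cr1* was the lowest, and the difference from them was not tested. Summed only over the 6 peaks that the authors called in both genotypes, the value was −0.02. That fit was scaled on such peaks alone. It leaves out peak 25 and most of the other peaks, so the part of peak 25 in the sum cannot be read from it.

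**Figure D4:**
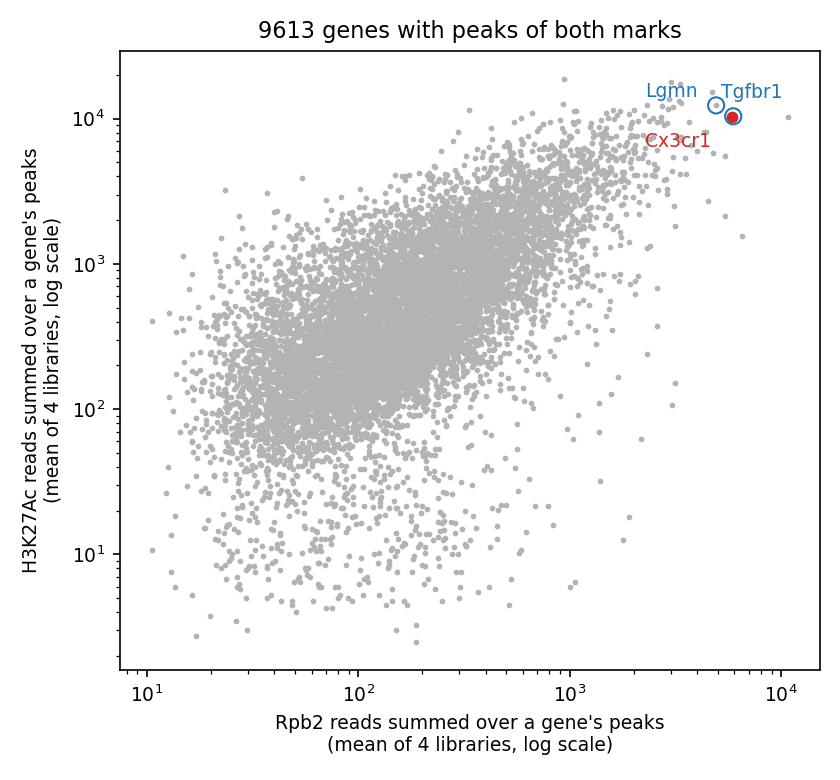
Rpb2 reads against H3K27Ac reads, each summed over a gene's peaks and averaged over 4 libraries, on log axes, for the 9613 genes with peaks of both marks. *Cx3cr1* (red) lies at 5867 Rpb2 and 10181 H3K27Ac reads in the upper right corner.

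The acetylated domain over *Cx3cr1* had 3792 and 10617 reads in the WT pools against 13268 and 13047 in the KO pools, which put *Cx3cr1* at rank 28 of 16945 genes by summed H3K27Ac reads and at rank 6 by the highest single peak. In CPM the peak was at 1071 and 1697 in WT and 1008 and 1047 in KO. The WT libraries differed from each other more than the KO libraries did, and the KO pools were both below the WT pools, as at 13% of all H3K27Ac peaks. The log2 ratio was −0.43 ± 0.42 (adjusted p = 0.889, edgeR's quasi-likelihood test over 55798 peaks), and 13 peaks (0.0233%) passed. *Cx3cr1* has a single H3K27Ac peak, so its gene sum holds the same reads, and a log2 ratio of −0.44 (adjusted p = 0.946) among 16938 genes, of which 0 passed by edgeR, 208 by DESeq2 and 1098 (6.48%) at an unadjusted p under 0.05.

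This value depends on the WT female library, whose share of reads in peaks was 15.9%. Without it the log2 ratio of the peak was −0.73 (adjusted p = 4.18e-31, edgeR), and without the WT male it was −0.060 (adjusted p = 0.659). In both the spread comes from the KO pair alone, which lay close together. With loess offsets, which remove trends with abundance between libraries, it was −0.68 (adjusted p = 0.00222), and with library totals it was 0.090, where the median of all peaks was 0.53. The call for acetylation over *Cx3cr1* thus changed with the scaling and with the library left out, and the part of the low share in peaks was not tested.

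**Figure D5:**
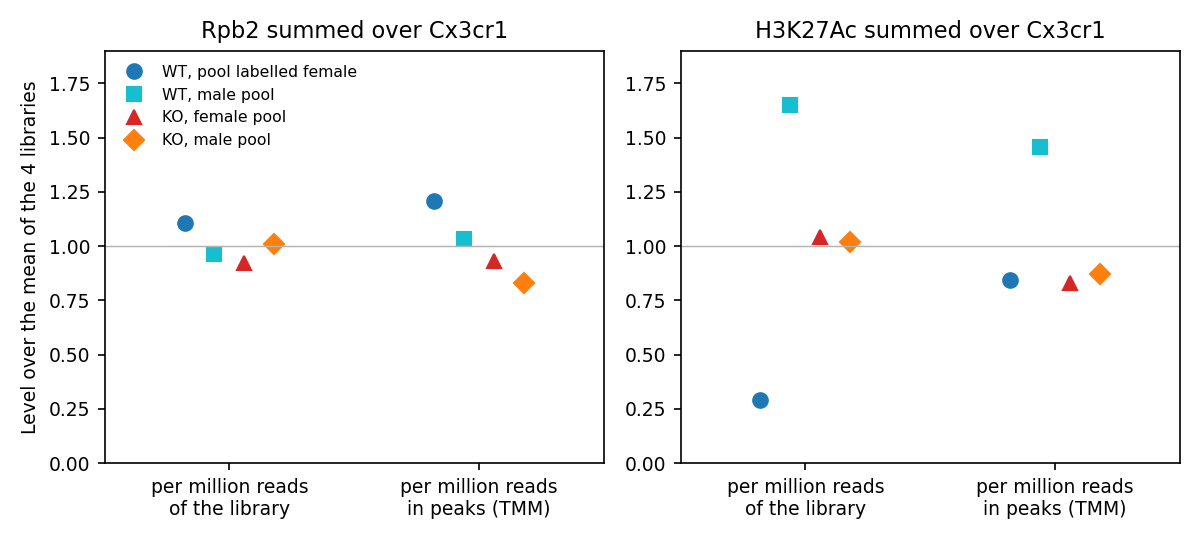
Reads summed over *Cx3cr1* in each library, over the mean of the 4 libraries, for Rpb2 (left) and H3K27Ac (right), as CPM relative to all reads of the library or as CPM relative to reads in peaks with TMM. The WT female H3K27Ac library is the lowest by library totals, at 179 CPM against 631 to 1021 in the others, and moves next to the KO libraries when scaled to reads in peaks.

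The genes nearest to *Cx3cr1* in their summed levels over all 8 libraries, by Euclidean distance of log2 CPM among 9613 genes, were *Tgfbr1* (distance 0.77), *Lgmn* (1.21), *Inpp5d* (1.49), *Vsir* (1.497) and *P2ry13* (1.55), where the median distance was 14.6. *Lgmn* encodes the lysosomal protease legumain, *Inpp5d* the phosphatase SHIP1, *Vsir* the checkpoint receptor VISTA and *P2ry13* an ADP receptor. Their Rpb2 log2 ratios were −0.07 to 0.23 and their H3K27Ac log2 ratios 0.12 to 0.25, and 0 of the 5 passed by edgeR or by DESeq2, while *Cx3cr1* had −0.35 and −0.44. For Rpb2, 1 of the 5 had an unadjusted p under 0.05 by edgeR's quasi-likelihood test, and for H3K27Ac 0 had.

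No peak of the neighbouring genes passed the threshold by edgeR's quasi-likelihood test. Genes with a TSS within 100 kb of that of *Cx3cr1* had 10 Rpb2 peaks, of which 0 were called and 0 had an unadjusted p under 0.05 (log2 ratio −0.46 to 2.33, median 0.43). The peak downstream of *Cx3cr1* that carries the name of *Xirp1* lies inside the same acetylated domain as the 25. It had 31 and 25 reads in the WT pools against 170 and 69 in the KO pools (log2 ratio 0.52 ± 0.53, adjusted p = 0.716, edgeR). For H3K27Ac there were 13 peaks of 6 genes in the same range, 0 called and 0 with an unadjusted p under 0.05. DESeq2 called 0 for either mark, with no adjusted p for 4 of the 13.

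The rest of the fractalkine pathway was looked up in a list of 33 genes. *Cx3cl1*, which encodes fractalkine, had no Rpb2 peak and 2 shallow H3K27Ac peaks that held 91 and 66 reads for WT against 72 and 64 for KO (log2 ratio −1.73 ± 0.81, adjusted p = 0.747, edgeR). Rpb2 peaks were present at 31 of the 33, and by edgeR 0 were called higher and 0 lower in KO. The median log2 ratio was 0.05, against 0.02 over all genes. Unadjusted p fell under 0.05 for 2 of the 31, and for 10.8% of all genes, so the list did not stand out. The 2 were *Pik3cg*, the PI3-kinase catalytic subunit that Gβγ activates (0.47, SE 0.18, adjusted p = 0.336), and *Plcb3*, a phospholipase C (−1.16, SE 0.48, adjusted p = 0.373). *Gnai2*, the main Gi subunit of myeloid cells, had 0.14 (SE 0.15), and *Ctss*, the protease cathepsin S that sheds fractalkine, 0.16 (SE 0.13). For H3K27Ac 32 of the 33 had a peak, and again 0 were called in either direction. The median was 0.09 against −0.11 over all genes. An unadjusted p under 0.05 was reached by 2 of the 32 and by 6.48% of all genes. In simulated H3K27Ac counts this test called 0 of 200 genes that were changed 4-fold. A lack of calls here does not show a lack of change. DESeq2 called 0 of the list for either mark.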

How the data were processed

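Chromatin from sorted microglia was precipitated with antibodies to Rpb2 or H3K27Ac, 4 libraries per mark, and sequenced as 51-nt single-end reads. The authors used Bowtie 2 for alignment to mm10, retained reads with a unique position, ran HOMER per genotype to call peaks and filtered them for reproducibility (IDR). They deposited raw read counts per peak, with the total reads of each library and the nearest gene, per the file headers. The 4 input libraries were not used here, and 0 columns of per-sample values were left out.

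Members were the peaks named *Cx3cr1*. The members and gene lists were chosen with earlier results of these data known. Described in full were peaks within 1000 bp of the TSS, the most-read peak of each part and those past a threshold or with an unadjusted p under 0.05. Counts were tested over all peaks, or over reads summed per gene, with edgeR 4.0.16 in R 4.3.3 (quasi-likelihood, TMM on reads in peaks, WT against KO, Benjamini-Hochberg adjustment, adjusted p under 0.05), keeping features whose mean reached 4 reads in either genotype. For the parts of the gene, the member peaks were replaced by 5 sums. Alternatives used DESeq2 1.42.0, the edgeR likelihood ratio test, other scalings, filters and libraries left out. Distances between genes used log2 CPM with a prior count of 2. The scripts were tested on simulated counts with the common dispersion of the data, in which 200 features were changed 4-fold. The main test called 18% of these for Rpb2 peaks and 89.5% for Rpb2 genes. For H3K27Ac it called 0 of the 200, among peaks as among genes. Sequences came from GRCm38.p6 with GENCODE and RefSeq annotation. A gene that the rule for named genes selects is not reported here.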

Additional observations from a re-analysis of the deposited data

Results flagged for a closer look

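The parts of *Cx3cr1*, its sums and the peaks described above were compared between the pools labelled female and those labelled male. At 2 of these places the Rpb2 difference between KO and WT had opposite signs. Over the 4 peaks upstream of the TSS the log2 ratio of KO to WT was −0.55 between the female pools and 0.19 between the male pools. At peak 14 in the intron it was 0.24 between the female pools and −0.13 between the male pools. Each rests on 1 pool per sex and genotype, so the difference was not tested, and the library labelled WT female held reads of Y-linked genes. Signs were opposite at 8 of the 25 *Cx3cr1* peaks (32%), and no share of all peaks at the same scaling is given beside it.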

How the results depend on the processing

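With 2 pools per genotype, small differences could not be told from the spread between pools, nor could simulated 4-fold changes for H3K27Ac. Peaks 6, 21, 24 and 25 were the only Rpb2 peaks of *Cx3cr1* called under any setting run. Of 238 alternative values for 23 results, 194 kept their direction and call, or their size. The count of called peaks, 1 of 25, was 4 with DESeq2 and 4 with the likelihood ratio test (peaks 6, 21, 24 and 25 in both), 0 among peaks centred within 1000 bp of a TSS and 0 of the 20 within 1000 bp of the gene, neither of which holds peak 25, and 0 to 3 with 1 library left out. Scaling by library totals, which moves the median of all Rpb2 peaks to 0.37 and of H3K27Ac peaks to 0.53, turned the H3K27Ac peak and its gene sum to 0.090, upstream Rpb2 to 0.057, the intron to 0.047, peak 5 to 0.10 and peak 22 to 0.052, and gave −1.55 (adjusted p = 0.0642) past the end. Loess offsets gave −0.68 for the H3K27Ac peak and −0.59 for its sum, both past the threshold. DESeq2 gave −0.36 for summed Rpb2 and −0.44 for the TSS (adjusted p = 0.0438). With 1 library left out, summed Rpb2 ranged from −0.46 to −0.25, the H3K27Ac peak from −0.73 to −0.060, its sum from −0.77 to 0.010, the sum past the end from −1.93 to −1.83, the TSS from −0.46 to −0.42, exon 2 from 0.07 to 0.37, the intron from −0.41 (without the WT male, adjusted p = 0.0270) to −0.13, the upstream part from −0.69 to 0.36 (without the library labelled WT female), peak 4 from −0.35 to 0.53 (−0.17 without the WT male), peak 14 from −0.26 to 0.36 (−0.024 without the WT male), and the log2 ratio around the coding start from −0.46 to −0.26. For these changes the cause was not tested. By rank, *Cx3cr1* moved to 1139 (Rpb2 per kb), 99 (Rpb2, highest peak) and 325 (H3K27Ac per kb). The numbers of the pools follow their sex labels, which do not pair them, and same-numbered pools did not deviate together (correlation −0.00797 for Rpb2, 0.00429 for H3K27Ac). With sex as a replicate block, summed Rpb2 was −0.35 (adjusted p = 0.0175), peak 25 −2.87 (adjusted p = 3.24e-05, edgeR), the H3K27Ac peak −0.39, and no other result changed its call. Over all Rpb2 peaks, where 2 were called, DESeq2 called 1022, the likelihood ratio test 924, the fit with at least 10 reads in every library 30, the block 4, and 2210, 1963 and 0 were called without WT replicate 1, WT replicate 2 and KO replicate 1. Over Rpb2 genes, where 0 were, library totals called 28, DESeq2 28, the likelihood ratio test 164, at least 10 reads 6, the block 43, and 264 and 155 were called without WT replicate 1 and WT replicate 2. Over H3K27Ac peaks, where 13 were, library totals called 0, DESeq2 240, at least 10 reads 1, and leaving out 1 library 2 to 8157. Over H3K27Ac genes, where 0 were, library totals called 8, DESeq2 208, the likelihood ratio test 100, loess 105, the block 140, and leaving out 1 library 88 to 3807. The H3K27Ac peak spans the TSS, but its centre is over 1000 bp away, so it has no value among peaks centred within 1000 bp of a TSS. Fits without 1 library take their spread from the other genotype's pair alone.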

Other observations

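The other Rpb2 peak that passed the threshold lay on the same chromosome as *Cx3cr1*. It is an intergenic peak from 123923559 to 123923877 on chr9, 3.86 Mb from the *Cx3cr1* TSS, with *Ccr1*, a chemokine receptor gene, as its nearest gene. It had 54 and 64 reads in the WT pools against 0 in both KO libraries, where up to 3 reads per library would go unseen. TG repeats filled 0% of its window. Within 5 Mb of the *Cx3cr1* TSS, a window set after the values were seen, lay 188 of the 26706 Rpb2 peaks tested (0.704%) and both of those called. An unadjusted p under 0.05 was reached by 16.0% of the peaks in the window and by 12.2% on other chromosomes.

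For H3K27Ac, 346 of 55798 peaks (0.620%) lay in the window, and 5 of the 13 called. The peak nearest *Scn10a*, a sodium channel gene, was 0.324 Mb away, and had 80 reads in each WT library against 3 and 2 in the KO pools. Those in *Ctdspl*, 1.25 Mb away, and nearest *Cxcr6*, 3.73 Mb away, were lower in KO as well. The former had 47 and 193 reads in the WT pools against 28 and 34 in the KO pools, and the latter had 70 and 346 against 54 and 12. In contrast, 2 peaks in *Slc6a20b*, a transporter gene 3.53 Mb away, were higher in KO, where the WT pools had 21 and 15 reads against 277 and 367 for KO at the one, and 32 and 14 against 287 and 383 at the other. The *Cx3cr1* domain itself was not among those called. The strain in which the eGFP allele was made is not given in the sources used here, and whether sequence of another strain remains around it in KO, where it would alter which reads align, was not tested.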
